A study of Homo sapiens with 12 samples.

Results

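ATF4 and 9 genes that act with it or after it in the integrated stress response were followed across 12 RNA libraries of a cultured human podocyte line. The genes were taken as a list of symbols, matched through their Ensembl identifiers: ATF4, DDIT3, TRIB3, CHAC1, ADM2, ATF3, ATF5, SESN2, ASNS and CEBPB. All 10 were found among the 62262 genes of the count table, and all 10 were among the 19784 genes with enough counts to be tested. The genes were chosen by symbol with their counts by group, and so their differences from DMSO, already known. Their differences between treatments are therefore given as a description, and nothing is supported with them.

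Podocytes are the epithelial cells that wrap the filtering capillaries of the kidney glomerulus. All 12 cultures were of 1 conditionally immortalized line, made with a temperature-sensitive SV40 T gene; a shift to the non-permissive temperature, which switches T off, had let the cells differentiate. They then received for 24 h either the vehicle DMSO or 100 nM of a calcineurin inhibitor: tacrolimus (TAC), voclosporin (VCS) or cyclosporine A (CSA), with 3 replicates in each of the 4 groups. VCS is an analog of the cyclic peptide CSA, and TAC is a macrolide that binds calcineurin through another carrier protein. The sources used here do not say what the replicates were, so p-values measure the spread between these libraries, which may be technical.

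The integrated stress response starts with kinases that phosphorylate the initiation factor eIF2. Phosphorylated eIF2 lowers general protein synthesis while it allows more translation of ATF4, a bZIP transcription factor whose messenger RNA carries upstream reading frames. ATF4 protein, with partners such as CEBPB, raises transcription of genes for amino acid supply, redox balance, feedback and, under lasting stress, cell death. Messenger RNA counts of ATF4 do not report the translational step, which was not measured here; its target genes are read at the level of their RNA. Cyclosporine has been linked to endoplasmic reticulum stress in kidney cells.

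ATF4 and CEBP proteins bind composite elements, and a match to such an element shows what these promoters hold near their starts. The letters TGATGNAA were searched on both strands of the RefSeq promoters on GRCh38.p14, each 300 bases long, from 250 bases before to 50 after the annotated start. The match was present in 3.62% of 35116 promoters, and in 3 of the 19 promoters listed for the 10 genes. The windows that hold it in CHAC1, ATF3 and ASNS are printed 5′ to 3′ on the strand of the gene, with the match in capitals. In CHAC1 the match lies on the opposite strand, so its reverse complement is shown.
CHAC1: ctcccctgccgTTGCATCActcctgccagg
ATF3: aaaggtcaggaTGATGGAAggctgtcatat
ASNS: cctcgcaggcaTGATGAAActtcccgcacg
The CHAC1 window is chr15:40953251-40953280 on the plus strand, and its match starts at -209 from the RefSeq start. The ATF3 window is chr1:212565205-212565234 on the plus strand, with its match at -191. The ASNS window is chr7:97872458-97872487 on the minus strand, with its match at -68. In GENCODE 29 the CHAC1 and ASNS windows fall in exons of those genes that are annotated as UTR, since other transcripts start farther upstream, and the ATF3 window lies in no annotated gene. A match is a description of these letters and not a binding site.

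Library totals ran from 28808213 to 36077072 counts, and the 10 genes had between 297 and 8752 counts in a library, so none was near the detection limit. The share of counts on mitochondrially encoded genes ran from 5.82% to 13.4%, and within every group it was highest in the library numbered 3. Of the markers of podocytes, ACTN4, SYNPO, CD2AP, VIM and PODXL were expressed, while NPHS1, which encodes the slit diaphragm protein nephrin, had 1 to 11 counts a library. The line thus barely held this transcript, which defines podocytes in tissue. In bulk RNA, fewer cells with a transcript and less of it per cell cannot be told apart. Summed levels of markers of other cell types, in CPM (counts divided by TMM-scaled library size), were 2.09 to 9.52 for endothelial, 16.8 to 58.3 for airway, 190.4 to 375.9 for hepatocyte and 56.7 to 90.8 for blood genes. Mesangial or fibroblast markers summed to 3463 to 5683 CPM and tubule or parietal markers to 639.9 to 941.4 CPM, with UMOD at 0 counts. Summed hepatocyte markers lay wholly higher with TAC (324.2 to 375.9 CPM) than in DMSO (198.2 to 248.7 CPM), while the CSA and VCS ranges overlapped DMSO. Tubule or parietal markers lay wholly lower with TAC (639.9 to 732.0 CPM) than in DMSO (751.6 to 899.4 CPM). Summed podocyte markers lay wholly higher with CSA (5722 to 5885 CPM) than in DMSO (5268 to 5519 CPM). Few genes carried most of each sum, by mean CPM over the libraries. They were VIM (3848) and ACTN4 (1455) for podocyte, COL1A1 (3869) for mesangial or fibroblast, and PAX8 (354.6) and CLDN1 (417.1) for tubule or parietal. For hepatocyte it was ALB (192.3) and for blood CD68 (72.4). The sums mainly follow these genes and do not show the content of cell types. The part of these markers in the results was not tested.

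ADM2, a secreted peptide gene, was the member that lay farthest above DMSO, with CSA, while ATF4 itself was near its DMSO level in every group. Of the 10 genes, 0 passed an adjusted p of 0.05 against DMSO for CSA, for TAC or for VCS, with edgeR's quasi-likelihood test adjusted over all 19784 genes. That threshold was passed by 0.0101% of all genes for CSA, 0.0354% for TAC and 0.00505% for VCS. Nothing is read from these counts, since the genes were chosen with the contrasts in view. At an unadjusted p under 0.05 there were 2 of the 10 genes for CSA, 1 for TAC and 4 for VCS, against 3.75%, 4.65% and 3.27% of all genes. With the replicate number as a block these counts were 6 of 10 for CSA and 2 for TAC, against 11.4% and 13.1% of all genes. DESeq2 called ADM2 for CSA and 0 of the 10 for TAC and for VCS, where 8, 38 and 7 of all genes passed. The median log2 difference of the 10 from DMSO was 0.22 for CSA, 0.03 for TAC and 0.22 for VCS, while the medians over all genes were -0.0043, -0.0044 and 0.0041. Of the 10, 9 lay above DMSO for CSA, 5 for TAC and 9 for VCS, against 49% of all genes for CSA, 49% for TAC and 50.9% for VCS. These comparisons share the same 3 DMSO libraries, so they are not independent of each other.

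**Figure D1:**
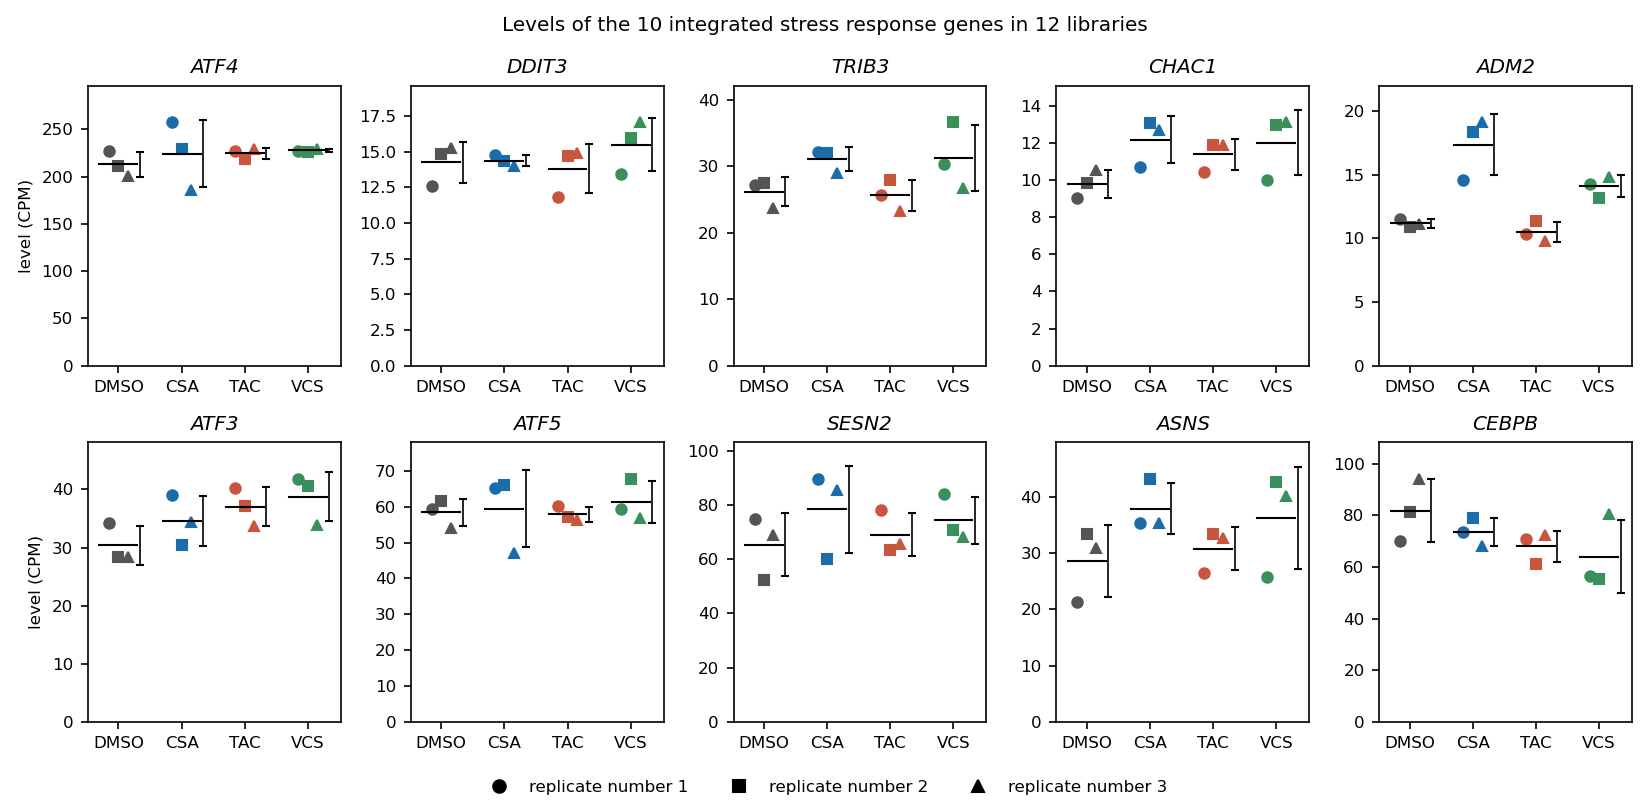
Levels of the 10 genes in CPM (vertical axes) in each of the 12 libraries, by group (colour) and replicate number (shape), with a line at the mean and a whisker of 1 SD (n = 3). ADM2 in the CSA and VCS libraries lies above all DMSO and TAC libraries, while ATF4, DDIT3 and ATF5 overlap between all groups.

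ATF4 is the regulator at the centre of the response. Its gene spans chr22:39519695-39522685 on the plus strand of GRCh38. Its transcript was the most abundant of the set per length of merged exons, at 84.7 CPM per kilobase in DMSO, followed by CEBPB at 41.9. The order below these was ATF5 at 19.8, SESN2 at 18.9, DDIT3 at 10.9, TRIB3 at 7.62, ATF3 at 7.51, ASNS at 6.41, CHAC1 at 4.76 and ADM2 at 2.61 CPM per kilobase. ATF4 stood at 227.2, 211.0 and 200.5 CPM in DMSO libraries 1, 2 and 3 and at 257.3, 229.4 and 186.3 CPM with CSA. It stood at 227.3, 218.3 and 229.1 CPM with TAC and at 227.4, 226.0 and 229.7 CPM with VCS. The CSA libraries held both the highest and the lowest of the 12 values, and the other groups lay inside that range. The log2 differences from DMSO were 0.08 for CSA, 0.08 for TAC and 0.10 for VCS, each with an SE of 0.11. ATF4 transcript thus differed from DMSO by less than 1 SE in every group.

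DDIT3, ATF3 and ATF5 are bZIP factors that pair with ATF4 or are induced with it. Their log2 differences from DMSO were above 0 with CSA and VCS, for DDIT3 and ATF5 by less than 1 SE, and mixed with TAC. DDIT3, the factor CHOP linked to cell death under endoplasmic reticulum stress, was at 12.6, 14.9 and 15.3 CPM in DMSO and at 14.8, 14.4 and 14.0 CPM with CSA. It was at 11.8, 14.7 and 14.9 CPM with TAC and at 13.4, 16.0 and 17.1 CPM with VCS. All groups overlapped, and the log2 differences from DMSO were 0.01 for CSA, -0.04 for TAC and 0.12 for VCS, with an SE of 0.12. DDIT3, on chr12:57516588-57521737 of the minus strand, overlaps MARS and MBD6 on the other strand, and the strand setting of the counting is not stated. ATF3, a stress-induced repressor and activator, stood at 34.3, 28.4 and 28.4 CPM in DMSO and at 39.0, 30.5 and 34.3 CPM with CSA. With TAC it stood at 40.3, 37.2 and 33.7 CPM, and with VCS at 41.8, 40.5 and 33.9 CPM. The log2 differences were 0.19, 0.29 and 0.35 for CSA, TAC and VCS, with an SE of 0.12, and the DMSO library numbered 1 reached into the range of each inhibitor. ATF5, an ATF4 paralog tied to mitochondrial stress, was at 59.4, 61.6 and 54.1 CPM in DMSO and differed from it by log2 0.03 with CSA, -0.01 with TAC and 0.07 with VCS (SE 0.12). It was at 65.2, 66.0 and 47.1 CPM with CSA, at 60.2, 57.1 and 56.3 CPM with TAC and at 59.4, 67.8 and 56.8 CPM with VCS. CSA library 3 held the lowest ATF5 value and VCS library 2 the highest, and all groups overlapped. ATF3 spans chr1:212565334-212620777 and ATF5 chr19:49928702-49933935, both on the plus strand, and ATF5 overlaps NUP62 and IL4I1 on the other strand.

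CEBPB, a partner in ATF4 heterodimers and a factor of inflammatory signalling, was the gene whose mean lay below DMSO in all 3 inhibitor groups. It stood at 70.0, 81.5 and 94.3 CPM in DMSO and at 73.5, 79.2 and 68.1 CPM with CSA. With TAC it stood at 70.8, 61.2 and 72.4 CPM and with VCS at 56.4, 55.3 and 80.5 CPM. Each inhibitor group overlapped DMSO. The log2 differences were -0.15 for CSA, -0.27 for TAC and -0.35 for VCS, with an SE of 0.15. Without the 4 libraries numbered 3 the CSA value turned to 0.01, and without DMSO library 3 it was -0.04. CEBPB, on chr20:50190734-50192689 of the plus strand, overlaps CEBPB-AS1, which had 11 to 23 counts a library on the other strand.

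Among the effectors, ADM2 stood apart from DMSO with CSA and with VCS, but not with TAC. ADM2 encodes adrenomedullin 2, a secreted peptide of the calcitonin family, on chr22:50481556-50486440 of the plus strand. It stood at 11.5, 10.9 and 11.1 CPM in DMSO and at 10.4, 11.4 and 9.83 CPM with TAC. It stood at 14.6, 18.4 and 19.1 CPM with CSA and at 14.3, 13.2 and 14.8 CPM with VCS. Every CSA and VCS library lay above every DMSO and TAC library, and the means were 11.2 ± 0.320 CPM in DMSO, 17.4 ± 2.43 with CSA, 10.5 ± 0.779 with TAC and 14.1 ± 0.866 with VCS (SD, n = 3). The log2 differences from DMSO were 0.64 for CSA, -0.09 for TAC and 0.33 for VCS, with an SE of 0.12. From high to low the order of the group means was CSA, VCS, DMSO and TAC; the neighbours CSA and VCS overlapped, as did DMSO and TAC.

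TRIB3, a pseudokinase that feeds back on ATF4 and AKT, was at 27.2, 27.5 and 23.7 CPM in DMSO. It was at 32.2, 32.0 and 28.95 CPM with CSA, all above DMSO, at 25.7, 27.9 and 23.3 CPM with TAC and at 30.3, 36.6 and 26.8 CPM with VCS. The log2 differences were 0.25, -0.03 and 0.26 for CSA, TAC and VCS, with an SE of 0.12. CHAC1, which breaks down glutathione, was at 9.03, 9.84 and 10.5 CPM in DMSO and at 10.7, 13.1 and 12.7 CPM with CSA, again all above DMSO. It was at 10.4, 11.9 and 11.9 CPM with TAC and at 9.99, 12.9 and 13.1 CPM with VCS, which overlap DMSO. The log2 differences were 0.31, 0.22 and 0.29, with an SE of 0.13. CHAC1, on chr15:40952962-40956519 of the plus strand, is a gene whose promoter holds the match printed above, and TRIB3 spans chr20:362835-397559 of the plus strand.

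ASNS, the enzyme that makes asparagine and a standard readout of ATF4 activity, was at 21.3, 33.5 and 31.0 CPM in DMSO and at 35.3, 43.2 and 35.3 CPM with CSA. It was at 26.5, 33.4 and 32.6 CPM with TAC and at 25.8, 42.6 and 40.2 CPM with VCS. The CSA libraries lay above all DMSO libraries, while DMSO library 1 was low and so were libraries 1 of TAC and VCS. The log2 differences were 0.41, 0.11 and 0.34 for CSA, TAC and VCS, with an SE of 0.20. SESN2, a stress-induced inhibitor of mTORC1, was at 74.7, 52.4 and 68.8 CPM in DMSO and at 89.7, 60.0 and 85.6 CPM with CSA. It was at 78.2, 63.3 and 65.6 CPM with TAC and at 84.1, 70.7 and 68.1 CPM with VCS, and all groups overlapped. Its log2 differences were 0.26, 0.08 and 0.19, with an SE of 0.16. ASNS, on chr7:97852118-97872542 of the minus strand, shares that strand with AC079781.5, which had 188 to 355 counts, and SESN2 spans chr1:28259527-28282491 of the plus strand. For CSA the libraries of 4 of the 10 genes lay wholly above DMSO, and 4.94% of all genes did so. For VCS this held for ADM2 alone of the 10, against 3.32% of all genes, and for TAC for 0 of the 10, against 5.99%. None of the 10 lay wholly below DMSO with CSA, TAC or VCS, as 4.93%, 6.44% and 4.16% of all genes did.

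**Figure D2:**
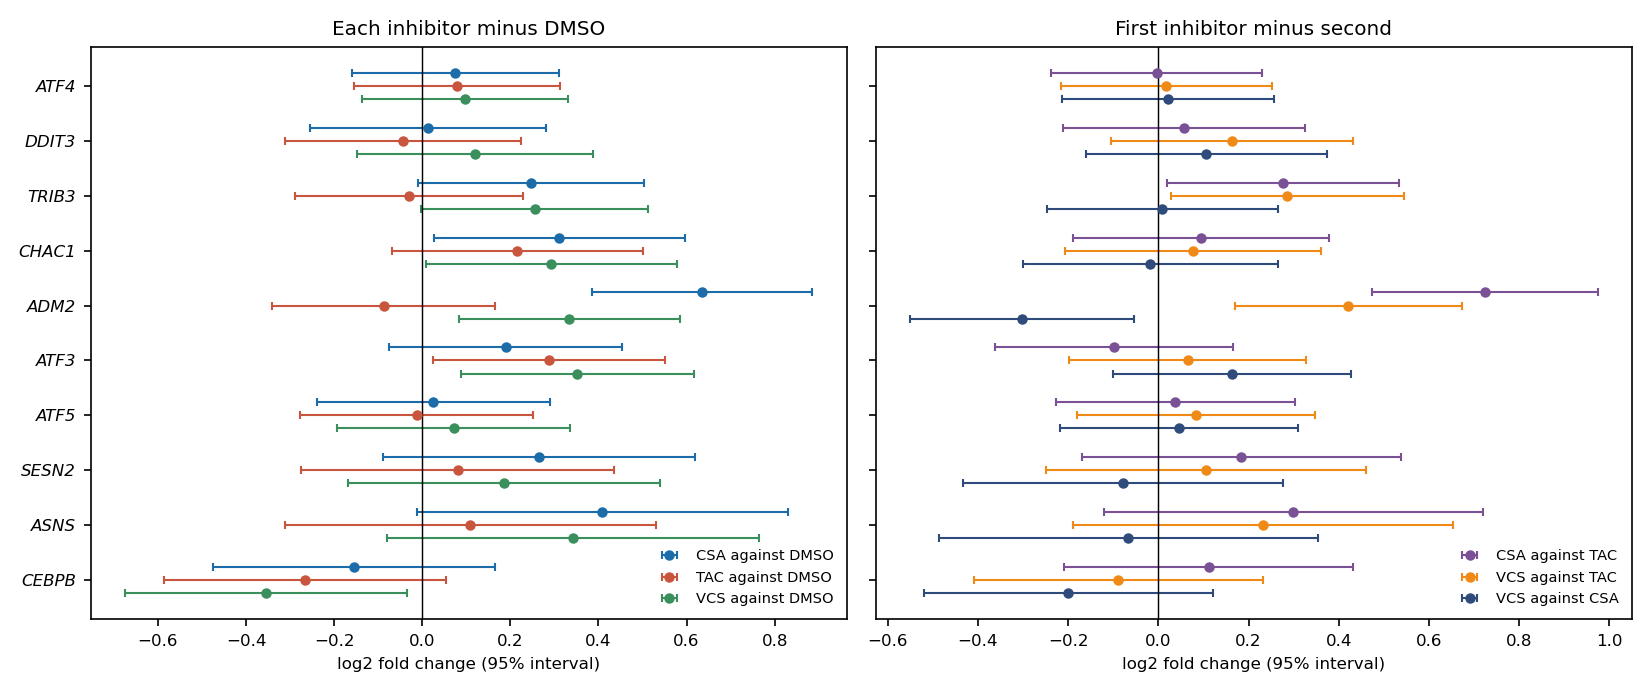
Log2 differences of the 10 genes (horizontal axis) with 95% intervals from edgeR, for each inhibitor against DMSO and for each pair of inhibitors. ADM2 has the widest distance from 0 for CSA against DMSO, at 0.64, and for CSA against TAC, at 0.72, and most intervals of the other genes include 0.

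The inhibitors were compared with each other at the same dose and time, in 3 pairs. With edgeR on group alone, 0 of the 10 genes passed an adjusted p of 0.05 in any pair. The shares of all genes that passed were 0.0303% for CSA against TAC, 0.0253% for VCS against TAC and 0.0101% for VCS against CSA. Unadjusted, 2, 2 and 1 of the 10 lay under 0.05, against 7.52%, 3.63% and 2.54% of all genes. DESeq2 called ADM2 for CSA against TAC and none of the 10 in the other pairs. Of all genes, DESeq2 called 46, 40 and 12 in the 3 pairs. With the replicate number as a block, edgeR called ADM2 for CSA against TAC (adjusted p = 0.0201), where 65 of 19784 genes passed. It called no other of the 10 in any pair. Unadjusted, the blocked fit had 3, 2 and 1 of the 10 under 0.05, against 15.9%, 7.88% and 6.29% of all genes. On group alone, CSA minus TAC gave log2 0.72 for ADM2 (95% interval 0.47 to 0.97, edgeR adjusted p = 0.0832), a 1.65-fold difference. VCS against TAC gave log2 0.42 for ADM2 (0.17 to 0.67, adjusted p = 0.952). In both cases every library of the first group lay above every TAC library. That held for 3 of the 10 genes for CSA, namely ADM2, TRIB3 and ASNS, against 6.84% of all genes, and for ADM2 alone of the 10 for VCS, against 4.65%. None of the 10 lay wholly below TAC, as 6.74% of all genes did for CSA and 4.12% for VCS. Means above TAC were seen for 8 of the 10 genes with CSA and 9 with VCS, against 49.4% and 51% of all genes.

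For the peptide analogs, VCS minus CSA gave log2 -0.30 for ADM2 (95% interval -0.55 to -0.05, edgeR adjusted p = 1), and the libraries overlapped. None of the 10 had VCS libraries wholly above or wholly below CSA, as 2.82% and 3.04% of all genes did, and 5 of the 10 lay above 0 in VCS minus CSA, against 50.9%. For the other 9 genes the interval of VCS minus CSA included 0. The interval for ATF4 was -0.21 to 0.26, and that for TRIB3 was -0.25 to 0.27. That for ASNS ran from -0.49 to 0.35; a p that misses the threshold does not show that the analogs act alike. Against TAC, TRIB3 gave log2 0.28 with CSA (0.02 to 0.53, edgeR adjusted p = 0.634) and 0.29 with VCS (0.03 to 0.54, adjusted p = 1), and neither passed the test.

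TRIB3 and ATF5 were called lower in the libraries numbered 3, though calls by number were no less common over all genes. Libraries with the same number in the labels were compared across groups, as the number 3 libraries minus the mean of numbers 1 and 2, with group in the model. This contrast called 26.5% of all genes, 13.6% higher and 12.9% lower. The labels do not say what the number marks, and mitochondrial share was highest in number 3 in every group; its part in these differences was not tested. Of the 10 genes, 2 passed, no larger a share than over all genes, and both were lower in number 3. TRIB3 was lower by log2 -0.22 (SE 0.06, edgeR adjusted p = 0.0127) and was lowest in number 3 in 4 of 4 groups. With no group term TRIB3 did not pass (edgeR adjusted p = 0.0947). ATF5 was lower by log2 -0.21 (SE 0.07, adjusted p = 0.0329), again lowest in 4 of 4 groups. Among leave-outs of a single library, TRIB3 lost its call without VCS library 3 (adjusted p = 0.0661), and ATF5 lost its call in 9 of 12 cases (adjusted p from 0.0514 to 0.0774), keeping it without TAC library 2, TAC library 3 or VCS library 1. The count of 2 became 0 without VCS library 3 and 4 without CSA library 3, namely TRIB3, ATF3, ASNS and CEBPB. It was 1 without DMSO library 1, 2 or 3, TAC library 1 or VCS library 2. The count stayed at 2 with other genes without CSA library 1 (DDIT3 and TRIB3) and without CSA library 2 (TRIB3 and ATF3). Totals over all genes in these fits ran from 2777 to 6636.

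Other genes of the set followed a different order of the numbers. A test for any difference among the 3 numbers, added after seeing the data, called 23.6% of all genes and 5 of the 10. ASNS was highest in number 2 in 4 of 4 groups and lowest in number 1 in 3 (edgeR adjusted p = 0.00742), while SESN2 was highest in number 1 in 4 of 4 and lowest in number 2 in 3 (adjusted p = 0.013). CHAC1 was lowest in number 1 in 4 of 4 groups (adjusted p = 0.0317) and ATF3 was highest there in 4 of 4 (adjusted p = 0.038), and TRIB3 passed as well (adjusted p = 0.0237). ATF4 itself (adjusted p = 0.309), DDIT3 (0.107), ADM2 (0.739), ATF5 (0.0741) and CEBPB (0.231) did not pass. With 1 library left out, the count of 5 became 2 without DMSO library 1 or 3, TAC library 2 or 3 or VCS library 3, became 3 without DMSO library 2, TAC library 1 or VCS library 1, and became 7 without CSA library 3. The 5 genes that passed thus had different orders of the numbers.

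**Figure D3:**
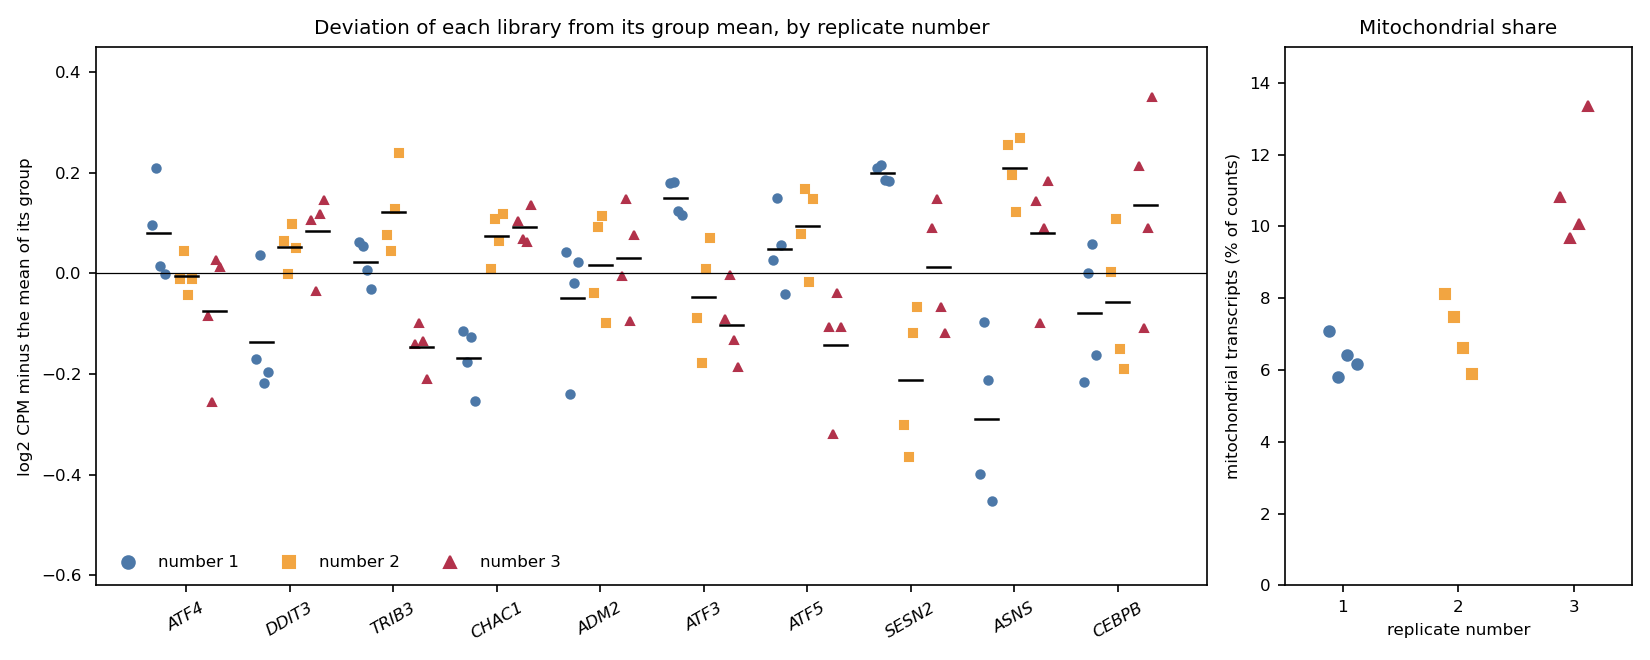
Deviation of each library from its group mean in log2 CPM (vertical axis) for the 10 genes, by replicate number, with 1 point per group and a line at the mean; the right panel gives the mitochondrial share of counts in %. TRIB3 and ATF5 lie lowest in number 3 in all 4 groups, ASNS lies highest in number 2 and SESN2 highest in number 1.

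The rest of the pathway was described with 135 other tested genes on 7 lists. With edgeR on group alone, 0 of the 135 passed for any inhibitor against DMSO or between inhibitors. Unadjusted, 25 lay under 0.05 for CSA, 6 for TAC and 12 for VCS against DMSO, and 19, 4 and 3 for CSA against TAC, VCS against TAC and VCS against CSA. The shares over all genes were 3.75%, 4.65% and 3.27% against DMSO and 7.52%, 3.63% and 2.54% for the pairs, so the counts for TAC against DMSO and for both VCS pairs were near the background. DESeq2 called 1 of the 135, SDF2L1 for CSA against TAC, as did edgeR with the replicate block. This gene was named after its value was seen. The lists were drawn up with earlier results of these libraries known, so their counts are a description. Beside the counts above DMSO that follow, 49%, 49% and 50.9% of all genes lay above DMSO for CSA, TAC and VCS. The eIF2 kinases and phosphatase subunits had 9, 11 and 11 of 14 genes above DMSO for CSA, TAC and VCS, with median log2 differences of 0.05, 0.07 and 0.10. The endoplasmic reticulum kinase EIF2AK3 differed by 0.15, 0.05 and 0.18 (SE 0.15), the amino acid sensor EIF2AK4 by 0.09, 0.10 and 0.13 (SE 0.10), and the phosphatase subunit PPP1R15A by 0.11, -0.04 and 0.15 (SE 0.12). EIF2AK1, the heme and mitochondrial stress kinase, differed by -0.03, 0.07 and -0.00 (SE 0.08) and EIF2AK2 by -0.14, 0.00 and -0.07 (SE 0.14). The constitutive phosphatase subunit PPP1R15B differed by 0.05, 0.11 and 0.06 (SE 0.09). DELE1 and OMA1, which relay mitochondrial stress to EIF2AK1, differed by -0.01, -0.00 and -0.01 (SE 0.08) and by -0.16, 0.17 and 0.22 (SE 0.14).

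Amino acid genes that ATF4 is known to drive lay mostly above DMSO with CSA and VCS. On that list 33, 25 and 33 of 34 genes were above 0 for CSA, TAC and VCS, with medians of 0.26, 0.12 and 0.18. SLC7A11, the cystine importer, differed by log2 0.57, 0.37 and 0.59 (SE 0.21), and PSAT1, of serine synthesis, by 0.30, 0.14 and 0.28 (SE 0.11). SLC3A2, the partner chain of amino acid exchangers, differed by 0.23, -0.06 and 0.05 (SE 0.10), and CTH, which makes cysteine, by 0.08, -0.16 and 0.02 (SE 0.15). The other unfolded protein response arms had 18, 11 and 13 of 20 genes above 0, with medians of 0.19, 0.06 and 0.05. DNAJB9, a target of the IRE1 and XBP1 arm, differed by 0.54, 0.26 and 0.50 (SE 0.12), and HERPUD1, of endoplasmic reticulum degradation, by 0.32, 0.09 and 0.21 (SE 0.13). HSPA5, the chaperone BiP, differed by 0.19, 0.11 and 0.07 (SE 0.12), and XBP1 by 0.23, 0.11 and 0.12 (SE 0.11).

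The stress and growth targets gave 11, 15 and 16 of 26 genes above 0, near the share over all genes, with medians of -0.02, 0.07 and 0.07. GDF15, a secreted stress hormone, differed by log2 -0.07, -0.29 and -0.17 (SE 0.26), and DDIT4, an inhibitor of mTORC1, by -0.04, -0.07 and -0.08 (SE 0.17). VLDLR, a lipoprotein receptor, differed by 0.19, 0.08 and 0.12 (SE 0.14) and STC2, a secreted glycoprotein, by 0.16, -0.02 and 0.11 (SE 0.11). The bZIP partners gave 12, 9 and 10 of 18 genes above 0, with medians between 0.01 and 0.02, and the mitochondrial stress genes gave 10, 8 and 8 of 13. CEBPG, which dimerizes with ATF4, differed by 0.03, 0.09 and 0.11 (SE 0.10) and NUPR1, a small stress-induced chromatin protein, by 0.15, 0.32 and 0.26 (SE 0.18). HSPD1, the mitochondrial chaperonin, differed by -0.00, 0.20 and 0.04 (SE 0.11). The eIF2 and eIF2B subunits gave 6, 8 and 9 of 10, with medians of 0.03, 0.10 and 0.04, and EIF2S1, the subunit that is phosphorylated, differed by 0.07, 0.16 and 0.11 (SE 0.14).

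**Figure D4:**
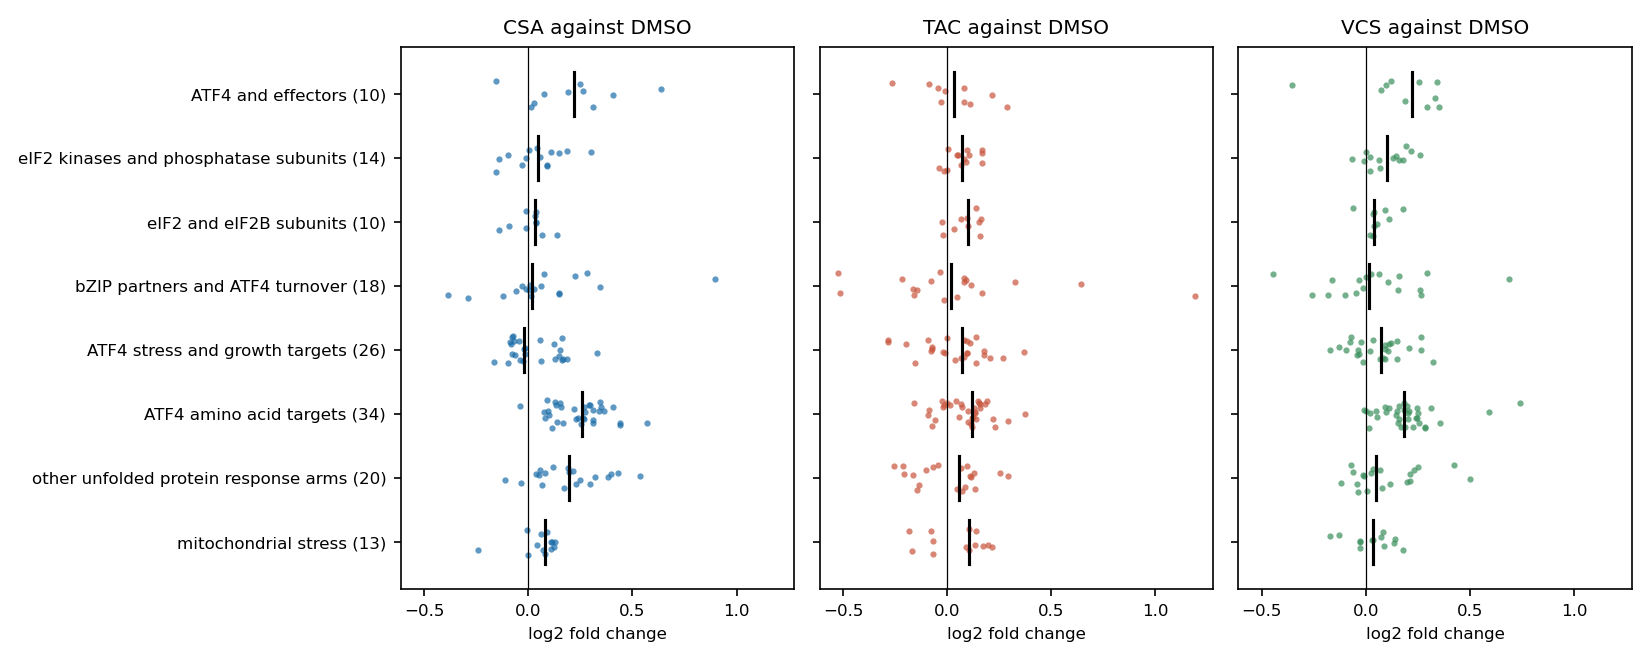
Log2 differences (horizontal axis) of every tested gene of the lists, 1 point per gene with the median as a bar, for each inhibitor against DMSO. The amino acid list has medians of 0.26, 0.12 and 0.18 and the 10 genes have medians of 0.22, 0.03 and 0.22.

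Genes of the same lists differed by replicate number. In number 3, where 13.6% of all genes were called higher and 12.9% lower, 12 of 34 amino acid genes fell and none rose, among them SLC7A11 by log2 -0.34 (SE 0.09, edgeR adjusted p = 0.0134). The others were the transporter SLC7A1, the enzymes SHMT2, MTHFD2, PYCR1 and GOT1, the aminoacyl-tRNA synthetases GARS1, IARS1, SARS1, WARS1 and YARS1, and the exporter XPOT. The eIF2 kinases and phosphatase subunits had 6 of 14 lower, with EIF2AK2, the kinase activated by double-stranded RNA, at -0.30 and PPP1R15A at -0.21, and EIF2AK4, PPP1CA, PPP1CC and IMPACT besides. Of the 10 eIF2 and eIF2B subunits EIF2S1, EIF2B1, EIF2B2 and EIF2B3 fell, with EIF2S1 at -0.29. Of the 18 genes on the bZIP list JDP2 and NUPR1 rose and FOS, MAFF, FBXW11 and EGLN1 fell. NUPR1 was at 0.34 and MAFF at -0.62. The stress and growth targets had 5 of 26 higher and 6 lower. GDF15 was higher in number 3 by log2 0.54 (SE 0.05, adjusted p = 0.000286), DDIT4 by 0.41 (SE 0.05, adjusted p = 0.000517), and TXNRD1, a redox enzyme, was lower at -0.46. BBC3, SESN1 and KLHL24 also rose, and CLIC4, HMOX1, NQO1, CHAC2 and TRIB1 also fell. Of the 20 unfolded protein response genes, 2 rose, DNAJB11 and SYVN1, a smaller share than over all genes, and 0 fell. Of the 13 mitochondrial stress genes SPG7 rose, and HSPD1, HSPA9, CLPP, CLPX, YME1L1, AFG3L2, DNAJA3 and PITRM1 fell. ASNS, a member of the amino acid branch, was at 0.12 (SE 0.08, adjusted p = 0.293), and did not pass.

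The pattern of the 10 genes across the 12 libraries, taken as the mean of their standardized log2 CPM, was most like that of TRIP6 (Pearson r = 0.837, Spearman rho = 0.734, 12 libraries), CENPB (0.818 and 0.671), C19orf12 (0.817 and 0.587), MAGEH1 (0.803 and 0.741) and TMEM203 (0.803 and 0.769), out of 12941 genes. These values describe libraries that share depth, group and replicate number, and no test was made. ATF4 was most like WDR12 (r = 0.921), GTF2E2 (0.902) and SNF8 (0.896), with rho of 0.664, 0.629 and 0.545. DDIT3 was most like CAV2 (r = 0.908, rho = 0.909), TMCO6 (0.876 and 0.923) and TMEM14B (0.873 and 0.853). ASNS was most like HDGFL2 (0.919 and 0.902), VIM (0.883 and 0.846) and GSS (0.864 and 0.867), and CEBPB most like CNIH2 (0.919 and 0.846), LINC00662 (0.914 and 0.902) and ANKS3 (0.899 and 0.951). Within the set, likeness was computed only for ATF4, DDIT3, ASNS and CEBPB, each against the other members. ASNS was closest to CHAC1, at r = 0.864, ATF4 was closest to ATF5 at 0.752, and CEBPB was farthest from ATF3 at -0.824.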

How the data were processed

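Poly(A) RNA of 12 libraries was measured, and the values are whole numbers per gene in a deposited table, read as estimated counts rounded by the authors, who used Salmon and GRCh38 per the submitters' processing notes. Tool versions and the annotation release are not given in the sources used here. The labels name in-line UMIs and added ERCC RNAs; whether UMIs were collapsed and whether strand was used is not stated, so intervals cover counting and replicate error of counts that may not be single molecules. Groups were taken from the labels. The filter was edgeR's filterByExpr with a minimum count of 10 (edgeR 4.0.16, R 4.3.3). TMM-scaled counts of all 12 libraries then entered a quasi-likelihood model on group, which left 8 residual degrees of freedom. Adjusted p-values are Benjamini-Hochberg over 19784 genes, two-sided, with a threshold of 0.05. Log2 CPM used a prior count of 2. The replicate-number contrast added the number to the group term.

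The members and the pathway lists were chosen with earlier results of these data known. Named genes were all 10 members, 24 listed pathway genes whatever their values, other list genes past the threshold, and the genes of nearest pattern. The correlation of same-numbered deviations was over 0.1 in all 3 pairs for CSA and DMSO, for TAC and DMSO and for VCS and TAC. It was over 0.1 in 14 of 18 pairs in all (0.00694 to 0.532), which comes from the data and not the labels. Pairs with different numbers over 0.1 were VCS 2 with DMSO 1 (0.263), TAC 1 (0.238) and CSA 1 (0.144), and TAC 2 with DMSO 1 (0.113). VCS 2 with DMSO 2 was at 0.0975, so the number does not always mark the closest library. Fits were tested on simulated counts. Alternatives were RLE size factors, no filter, robust spread, DESeq2 1.42.0, only the groups compared, a replicate block, no libraries numbered 3, no group term, and each library left out. Positions came from GENCODE 29 and promoter sequences from RefSeq on GRCh38.p14. A further marker gene is not reported here.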

Additional observations from a re-analysis of the deposited data

How the results depend on the processing

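Against DMSO, the log2 values of the 10 genes kept within 1 replicate SD in all 570 values recomputed under other settings, although some changed sign: ATF4, DDIT3, ATF5 and CEBPB for CSA, DDIT3, TRIB3, ATF5, SESN2 and ASNS for TAC, and ATF5 for VCS. The count of the 10 that passed for CSA against DMSO was 1 with no filter on low counts (ADM2, adjusted p = 0.0215) and 1 with DESeq2 (ADM2, adjusted p = 0.00546). For CSA against TAC it was 1, again ADM2, with no filter (adjusted p = 0.00308), with DESeq2 (8.91e-05) and with the replicate block (0.0201), and it ran from 0 to 1 with each library left out (0.0381 without CSA library 1). The replicate block changed no other call among the 10 against DMSO or between inhibitors. For VCS against DMSO, 6 of the 10 had an unadjusted p under 0.05 with the replicate block, against 11% of all genes. Of the 135 other pathway genes, the block called SDF2L1 for CSA against TAC. For libraries numbered 3 the count was 1 with no group term and 0 to 4 with each library left out. For any replicate number it was 2 to 7 with each library left out, while totals over all genes ran from 2341 to 6801. With no filter it was 6, with ATF5 and CEBPB added and CHAC1 lost.

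Values near 0 turned sign. Without the 4 libraries numbered 3, CSA against TAC gave 0.13 for ATF4, and VCS against CSA gave -0.10 for ATF4, -0.047 for ATF5 and 0.045 for SESN2 on the log2 scale. With each library left out, CSA against TAC ran from -0.042 to 0.18 for ATF5, -0.11 to 0.11 for ATF4 and -0.044 to 0.12 for DDIT3. VCS against TAC ran from -0.0064 to 0.032 for ATF4, -0.00072 to 0.13 for ATF5 and -0.29 to 0.00060 for CEBPB. VCS against CSA ran from -0.25 to 0.029 for SESN2, -0.10 to 0.10 for CHAC1, -0.21 to 0.13 for ASNS, -0.10 to 0.13 for ATF4, -0.13 to 0.11 for TRIB3 and -0.10 to 0.12 for ATF5. Number 3 against 1 and 2 ran from -0.047 to 0.085 for SESN2 and -0.010 to 0.11 for ADM2. CEBPB passed there with no filter (adjusted p = 0.0129). The cause was not tested.

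Counts over all genes moved too. With no filter, 86, 131 and 69 genes passed against DMSO for CSA, TAC and VCS, where 2, 7 and 1 had passed, and DESeq2 gave 8, 38 and 7. With the replicate block these counts were 6, 41 and 0. Between inhibitors, 6, 5 and 2 genes passed for CSA against TAC, VCS against TAC and VCS against CSA. These became 87, 101 and 70 with no filter, 46, 40 and 12 with DESeq2 and 65, 41 and 6 with the replicate block. In number 3, 5248 genes were called over all libraries, and the totals with 1 library left out ran from 2777 to 6636. Counts of the 10 genes, from 297 a library, and 3 libraries a group both limit the precision.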
